A study of Mus musculus with 30 samples.

Results

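The genes described are 8 mRNAs that the epithelium of the mouse epididymis is known to express, Clu, Krt8, Krt18, Epcam, Cdh1, Crisp1, Adam7 and Gpx5, as they were measured in libraries made from sperm. They were taken by name from the table of polyadenylated sperm RNA collected 24 h after the last injection. All 8 had a row there among 16242 features, 15363 of them classed by name as mRNAs or lincRNAs. The sperm came from C57Bl/6J males that were injected from 3 months of age, 2 times per week for 4 weeks, either with tesaglitazar at 10 μg/kg (TESA, 4 libraries with the numbers 1, 3, 5 and 7) or with the same DMSO in saline alone (CTRL, 4 libraries with the numbers 2, 4, 6 and 8). Tesaglitazar activates the nuclear receptors PPARα and PPARγ. The cells swam out of the cauda epididymis, the storage end of the duct, and were treated with a buffer that lyses somatic cells before RNA was extracted, so that RNA of other cells could be present only as far as it passed these steps. Libraries held 15337589 to 27709990 estimated counts, and 1 lincRNA, RP23-81C12.3, took 23.4% to 38.3% of them.

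Sperm leave the testis immature and gain motility and the ability to fertilize while they pass through the epididymis. Its duct is lined by principal cells, which secrete proteins into the lumen and onto the sperm surface, with clear, narrow and basal cells between them, and this secretion differs between the caput, corpus and cauda and depends on androgens. Mature sperm transcribe next to nothing, so that mRNAs of epithelial proteins in a sperm library raise the question of how much RNA of the epididymis is present and whether it varies between libraries or with the injections.

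All 8 mRNAs reached the level needed for a test, over 20 counts in 4 or more libraries. Together they took 0.0736% of all counts in the library with the smallest share, CTRL 2, and 0.296% in the library with the largest, CTRL 8. Scaled by TMM, their summed level was 1313 CPM (counts relative to the scaled library total) in TESA 1, 1144 in TESA 3, 1799 in TESA 5 and 1692 in TESA 7. In the CTRL libraries it was 954 CPM in CTRL 2, 1285 in CTRL 4, 1554 in CTRL 6 and 2577 in CTRL 8. The lowest and the highest library were both CTRL, a 2.70-fold range, and the groups overlapped, with means of 1487 ± 309.5 CPM (SD, n = 4) in TESA and 1593 ± 701 (SD, n = 4) in CTRL. The 4 libraries with the numbers 1 to 4 all lay below the 4 with the numbers 5 to 8, whichever scaling was used, and the share of RP23-81C12.3 was 35.2% to 38.3% in the former and 23.4% to 34.3% in the latter. What the numbers stand for is not stated in the labels, and the cause was not tested. Which mean was larger depended on single libraries, with 1242 CPM in CTRL and 1458 in TESA without CTRL 8 and 1606 in CTRL and 1615 in TESA without TESA 3, and on the scaling, with 1690.3 CPM in TESA and 1596 in CTRL by library totals. Crisp1 made up 41.6% of the mean sum. In bulk RNA of this kind, fewer epithelial cells or fragments and less RNA in each of them cannot be told apart.

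None of the 8 mRNAs passed an adjusted p of 0.05 between TESA and CTRL (Benjamini-Hochberg, after the quasi-likelihood F-test of edgeR), and 0% of the 13027 mRNAs and lincRNAs tested did. At an unadjusted p under 0.05 there were 0 of the 8, beside 313 or 2.4% of all tested, and the adjusted p was 1.00 for each of the 8 in this edgeR test. The groups overlapped in all 8, while they did not overlap in 398 or 3.06% of all tested genes. Of the 8 log2 fold changes, 4 lay above 0 and 4 below, with a median of 0.06, against a median of -0.01 over all tested genes. The median of the 8 was -0.19 under limma voom, 0.23 without CTRL 4 and 0.28 by library totals, which moved the median of all tested genes to 0.21. With 4 libraries in each group, the 95% intervals below are wide, and a p that misses the threshold does not show that the levels were alike.

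**Figure D1:**
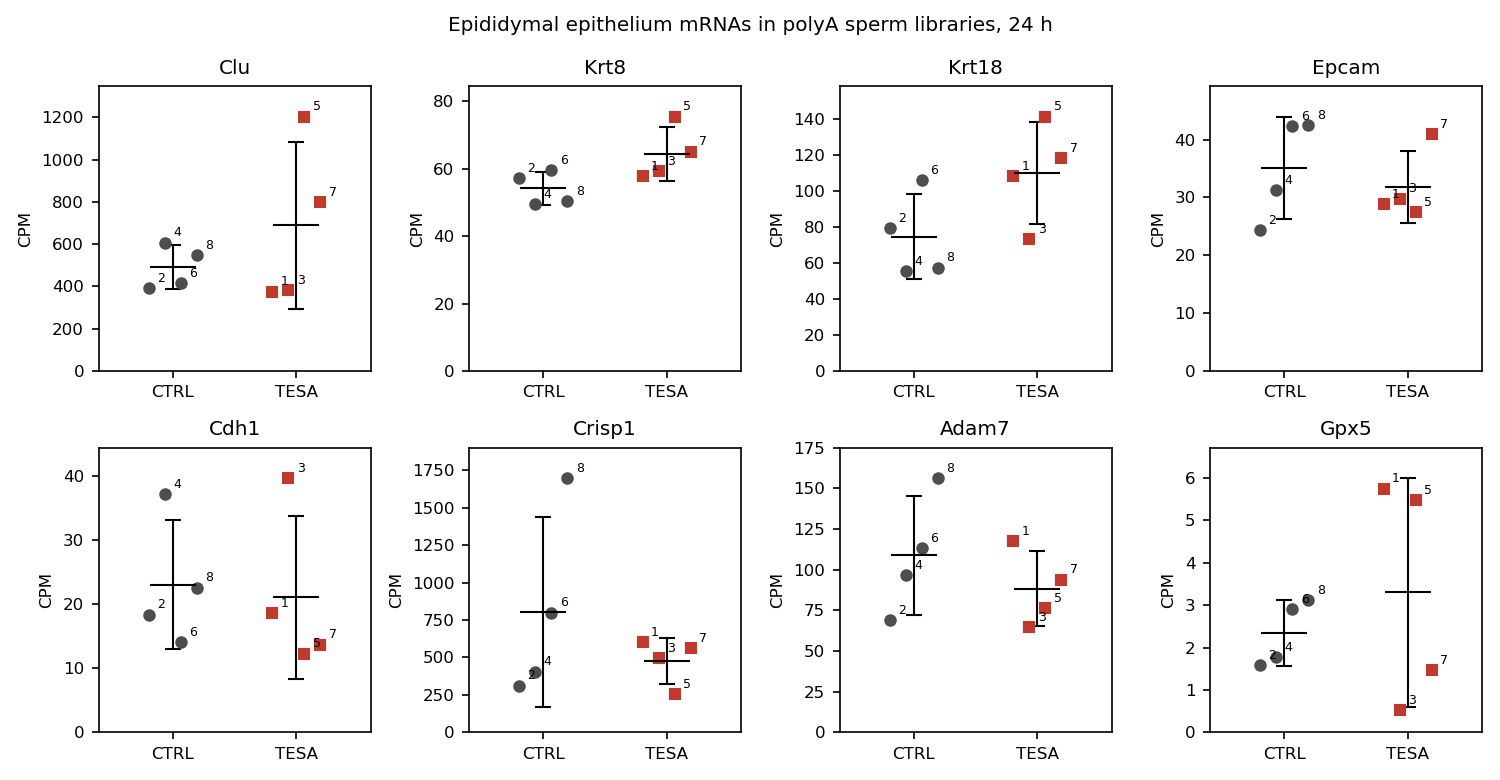
Level of each of the 8 mRNAs in CPM (TMM-scaled, linear axis from 0) in the 4 CTRL libraries (circles) and the 4 TESA libraries (squares), with the library number beside each point; the horizontal mark is the group mean and the bars are 1 SD. CTRL 8 was highest for Crisp1, Adam7 and Epcam and TESA 5 for Clu, Krt8 and Krt18, and the 2 groups overlapped in every panel.

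Among the secreted proteins of the duct, Crisp1 encodes a cysteine-rich protein that the epithelium releases and that binds to sperm. Crisp1 stood at 601 CPM in TESA 1, 495 in TESA 3, 256 in TESA 5 and 561 in TESA 7, and at 312 in CTRL 2, 406 in CTRL 4, 799.7 in CTRL 6 and 1697 in CTRL 8. CTRL 8 was more than any other library and TESA 5 less, a 6.63-fold range that lay across both groups. The log2 fold change of Crisp1 was -0.75 (SE 0.52, 95% interval -2.03 to 0.53, unadjusted p = 0.182 in edgeR), and it was -0.09 without CTRL 8, the library that set it. On the log2 scale the SD of Crisp1 over the 8 libraries was 0.85, against a median SD of 0.49 for 298 genes of like level, and 37% of all tested genes had a larger SD.

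Clu encodes clusterin, a secreted chaperone that is abundant in epididymal fluid. Clu had 375 CPM in TESA 1, 382 in TESA 3, 1204 in TESA 5 and 799 in TESA 7, and 393, 607, 416 and 548 CPM in CTRL 2, 4, 6 and 8. TESA 5 and TESA 7 were above all CTRL libraries and TESA 1 and TESA 3 below all of them, so that the TESA libraries enclosed the CTRL libraries. The log2 fold change was 0.49 (SE 0.40, 95% interval -0.49 to 1.47, unadjusted p = 0.249 in edgeR), and it was 0.10 without TESA 5.

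Gpx5 encodes a secreted glutathione peroxidase that is made in the caput, upstream of the cauda from which these sperm were taken. It rested on few counts, with 93 counts in TESA 1, 12 in TESA 3, 111 in TESA 5 and 64 in TESA 7, and 19, 22, 60 and 94 in CTRL 2, 4, 6 and 8. These are 5.74, 0.519, 5.47 and 1.47 CPM in TESA and 1.59, 1.78, 2.91 and 3.12 CPM in CTRL. TESA 1 and TESA 5 were high and TESA 3 low, an 11.1-fold range, and the exact Poisson interval of 95% for TESA 3, from 0.268 to 0.907 CPM, did not reach that of TESA 5, from 4.50 to 6.59 CPM; these intervals cover counting error only. The SD of Gpx5 on the log2 scale was 1.07, near the median SD of 0.94 for 501 genes of like level. The log2 fold change of Gpx5 was 0.48 (SE 0.74, 95% interval -1.32 to 2.28, unadjusted p = 0.53 in edgeR), and limma voom with quality weights turned it to -0.69. Gpx6, the gene next to it on chromosome 13, 2737 bases away, had 3.43, 0.566, 1.41 and 1.33 CPM in CTRL 2, 4, 6 and 8, 3.06 in TESA 5 and 0 in the other TESA libraries.

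Adam7 encodes a membrane protein of the ADAM family that is made by the epididymal epithelium and handed to sperm in the lumen. Its level was 118 CPM in TESA 1, 64.8 in TESA 3, 76.3 in TESA 5 and 93.9 in TESA 7, and 68.9, 96.7, 113 and 156 CPM in CTRL 2, 4, 6 and 8. CTRL 8 was again the highest library, TESA 3 and CTRL 2 were low, and the groups overlapped, with a log2 fold change of -0.30 (SE 0.29, 95% interval -1.02 to 0.41, unadjusted p = 0.325 in edgeR) that was -0.08 without CTRL 8.

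Krt8 and Krt18 encode the keratins that pair into the intermediate filaments of simple epithelia. Krt18 had 108 CPM in TESA 1, 73.1 in TESA 3, 141 in TESA 5 and 118 in TESA 7, and 79.2 in CTRL 2, 55.5 in CTRL 4, 106 in CTRL 6 and 57.4 in CTRL 8. The 3 highest libraries were TESA and the 2 lowest CTRL, but TESA 3 lay below 2 of the CTRL libraries. Krt18 had the smallest unadjusted p of the 8 mRNAs, 0.0769 in edgeR, with a log2 fold change of 0.56 (SE 0.29, 95% interval -0.14 to 1.26).

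Krt8 varied within a narrower range, with 57.9, 59.3, 75.5 and 65.1 CPM in TESA 1, 3, 5 and 7 and 57.2, 49.6, 59.5 and 50.3 CPM in CTRL 2, 4, 6 and 8. TESA 5 was again highest and CTRL 4 lowest, a 1.52-fold range, and the groups overlapped. The log2 fold change was 0.25 (SE 0.19, 95% interval -0.21 to 0.71, unadjusted p = 0.209 in edgeR). Its SD on the log2 scale, 0.19, was the smallest of the 8 mRNAs, against a median SD of 0.40 for 501 genes of like level. Of all tested genes, 99.1% had a larger SD.

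Epcam and Cdh1 encode adhesion proteins of epithelial cells, the second of them E-cadherin of the adherens junction. Epcam had 28.8, 29.8, 27.5 and 41.0 CPM in TESA 1, 3, 5 and 7 and 24.3, 31.3, 42.3 and 42.5 CPM in CTRL 2, 4, 6 and 8. CTRL 6, CTRL 8 and TESA 7 were high and the other libraries lay close together, with a log2 fold change of -0.14 (SE 0.25, 95% interval -0.75 to 0.46, unadjusted p = 0.574 in edgeR) that was -0.29 without TESA 7 and -0.04 without CTRL 6 or without CTRL 8. Cdh1 had 18.6, 39.7, 12.3 and 13.7 CPM in TESA 1, 3, 5 and 7 and 18.4, 37.2, 14.1 and 22.6 CPM in CTRL 2, 4, 6 and 8. TESA 3 and CTRL 4 stood above the rest, 1 from each group, and the log2 fold change of -0.13 (SE 0.43, 95% interval -1.18 to 0.92, unadjusted p = 0.768 in edgeR) changed its sign when CTRL 4, TESA 5 or TESA 7 was left out.

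The 8 mRNAs were compared pair by pair over the libraries. Of the 28 pairs among the 8 mRNAs, 14 had a Pearson r of log2 CPM above 0 and 14 below, with a median of -0.02 over 8 libraries. A two-sided exact permutation test of the pairing gave 4 pairs with an unadjusted p under 0.05, 3 with r above 0 and 1 below, and 1 pair past an adjusted p of 0.05 after Benjamini-Hochberg adjustment over the 28. The median r of a member with all other tested genes ran from -0.04 for Krt18 to 0.13 for Epcam.

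The pair past the threshold was Krt8 and Krt18, with r = 0.90 (exact permutation p = 0.000992, adjusted p = 0.0278, n = 8) and a Spearman rho of 0.88 (exact permutation p = 0.00724, adjusted p = 0.15). Without the 2 libraries farthest from the median of Krt8, CTRL 4 and TESA 5, r was 0.82. With group means removed r was 0.84 (permutation, adjusted p = 0.11). This permutation ran across both groups, and after the removal of group means it is not exact. Over 16 alternatives r ran from 0.84 to 0.95, and the adjusted permutation p lay above 0.05 in 10 of them, among them the leaving out of CTRL 2, CTRL 4, TESA 5, CTRL 6, TESA 7 or CTRL 8. Among 13026 genes, Krt18 ranked 20 by r with Krt8, and Krt8 ranked 89 by r with Krt18. The ratio of Krt8 to Krt18 counts within a library, which no scaling touches, ran from 0.534 in TESA 1 and TESA 5 to 0.894 in CTRL 4, a 1.67-fold range.

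The r of Crisp1 with Adam7 and with Epcam lay above 0, and neither pair passed the adjusted threshold. Crisp1 and Adam7 had r = 0.84 (exact permutation p = 0.00856, adjusted p = 0.0944) and rho = 0.76 (exact permutation p = 0.0368, adjusted p = 0.257), and r was 0.68 without CTRL 8 and TESA 5, the libraries farthest from the median of Crisp1. This pair passed the threshold by library totals (r = 0.90, adjusted exact permutation p = 0.0333) and without TESA 3 (r = 0.94, adjusted exact permutation p = 0.0278). Crisp1 and Epcam had r = 0.79 (exact permutation p = 0.0125, adjusted p = 0.0944) and rho = 0.81 (exact permutation p = 0.0218, adjusted p = 0.203), and r was 0.60 without CTRL 6 and CTRL 8. Epcam and Adam7 had r = 0.69 (exact permutation p = 0.0642, adjusted p = 0.317) and rho = 0.62 (exact permutation p = 0.115, adjusted p = 0.46), and r was 0.39 without CTRL 6 and CTRL 8, the libraries farthest from the median of Epcam.

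The r of Cdh1 with both keratins lay below 0, and neither pair passed the adjusted threshold. Krt18 and Cdh1 had r = -0.82 (exact permutation p = 0.0135, adjusted p = 0.0944) and rho = -0.86 (exact permutation p = 0.0107, adjusted p = 0.15), with r = -0.83 without CTRL 4 and CTRL 8. This pair passed the threshold with group means removed (r = -0.93, adjusted permutation p = 0.0181, not exact as above). It also passed without TESA 3 (r = -0.89, adjusted exact permutation p = 0.025), while r was -0.47 by library totals. Without CTRL 4 r was -0.71 (adjusted exact permutation p = 0.322), and without TESA 5 it was -0.74 (adjusted exact permutation p = 0.379). Krt8 and Cdh1 had r = -0.67 (exact permutation p = 0.0679, adjusted p = 0.317) and rho = -0.74 (exact permutation p = 0.0458, adjusted p = 0.257), and r was -0.33 without CTRL 4 and TESA 5. The ratio of Krt18 to Cdh1 counts ran from 1.49 in CTRL 4 and 1.84 in TESA 3 to 11.5 in TESA 5. Between the keratins and the secreted Crisp1 r lay below 0, and neither pair passed the threshold. Krt8 and Crisp1 had r = -0.53 (exact permutation p = 0.173, adjusted p = 0.485) and rho = -0.19 (exact permutation p = 0.665, adjusted p = 0.916), with r = -0.61 without CTRL 4 and TESA 5. Krt18 and Crisp1 had r = -0.37 (exact permutation p = 0.37, adjusted p = 0.691) and rho = -0.21 (exact permutation p = 0.619, adjusted p = 0.916), with r = -0.1 without CTRL 4 and CTRL 8. Crisp1 and Clu had r = -0.31 (exact permutation p = 0.454, adjusted p = 0.748) and rho = -0.31 (exact permutation p = 0.462, adjusted p = 0.916), with r = 0.31 without TESA 5 and TESA 7, and their count ratio ran from 0.213 in TESA 5 to 3.10 in CTRL 8, a 14.6-fold range.

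**Figure D2:**
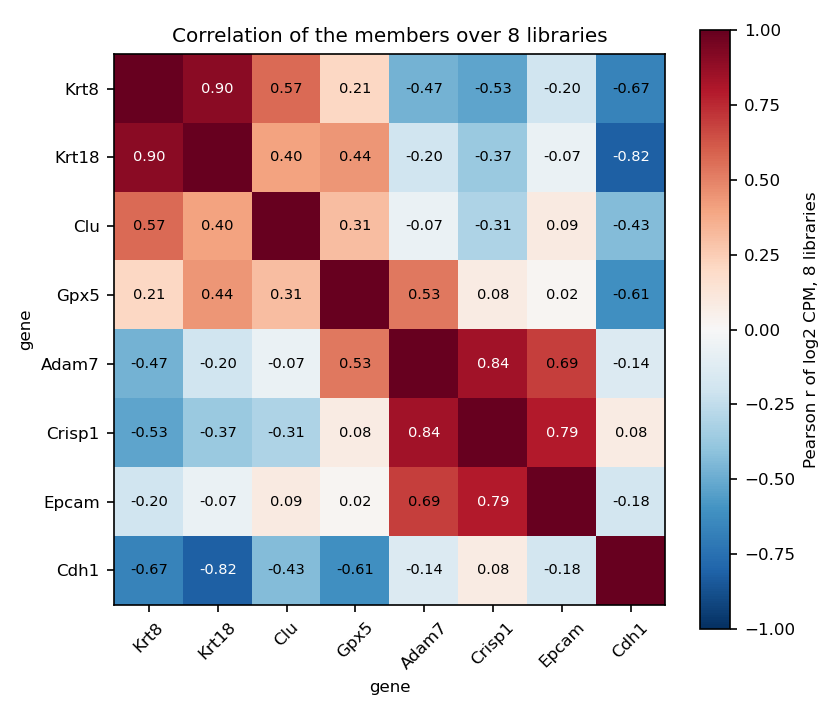
Pearson r of log2 CPM over the 8 libraries for each pair of the 8 mRNAs, with the colour scale from -1 to 1 and the value in each cell. Krt8 and Krt18 (0.90) and the group of Crisp1, Adam7 and Epcam (0.69 to 0.84) stand out above 0, and Cdh1 against Krt18 (-0.82) below it.

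Krt8 and Krt18 lie near each other with 2 genes between them, Gm36026 and Gm41404: Krt8 lies at chr15:101996711-102004342 and Krt18 at chr15:102028216-102032026 of GRCm38, 23873 bases apart. They are read in opposite directions away from the stretch between them. Of the other members, Clu (chr14:65968483-65981548) and Adam7 (chr14:68497336-68533689) share a chromosome, as do Crisp1 (chr17:40293758-40319207) and Epcam (chr17:87635979-87651127), while Cdh1 lies at chr8:106603350-106670247 and Gpx5 at chr13:21286429-21292727. RefSeq promoter sequences (GRCm38.p6) matched 5 of the 8 members, Krt8, Krt18, Crisp1, Epcam and Gpx5, while Clu, Cdh1 and Adam7 had no entry in the table used here. Both strands of the 250 bases before the start in each promoter entry were searched for 3 motifs. For Gpx5 this window, chr13:21292687-21292936, overlaps the end of the gene span given above. The letters AGAACA, 1 arm of an androgen receptor site, stand in 16.1% of 32851 promoters searched in the same way. The letters TATAAA of the TATA box stand in 12.4% of them. The letters GGGCGG of the GC box stand in 32.7% of them. The Crisp1 promoter held TATAAA once, 31 bases before the start, the Epcam promoter held GGGCGG once, on the opposite strand, and the other searches found no match in the 5 windows. Printed 5′ to 3′ in the direction of the gene, with a match in capitals, are the windows of 4 genes, those with an entry among the 6 genes of the pairs with the largest r in size.
Krt8 (chr15:102004343-102004592, minus strand): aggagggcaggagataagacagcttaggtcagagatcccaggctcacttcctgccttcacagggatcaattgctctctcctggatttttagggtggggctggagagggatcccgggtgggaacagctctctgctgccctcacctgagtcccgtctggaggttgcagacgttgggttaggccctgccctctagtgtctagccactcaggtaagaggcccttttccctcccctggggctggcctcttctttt
Krt18 (chr15:102027966-102028215, plus strand): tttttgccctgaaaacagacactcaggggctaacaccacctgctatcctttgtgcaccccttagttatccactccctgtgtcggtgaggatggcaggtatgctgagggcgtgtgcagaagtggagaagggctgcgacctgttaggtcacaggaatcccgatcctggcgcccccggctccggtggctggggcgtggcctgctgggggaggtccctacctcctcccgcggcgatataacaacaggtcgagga
Crisp1 (chr17:40319208-40319457, minus strand): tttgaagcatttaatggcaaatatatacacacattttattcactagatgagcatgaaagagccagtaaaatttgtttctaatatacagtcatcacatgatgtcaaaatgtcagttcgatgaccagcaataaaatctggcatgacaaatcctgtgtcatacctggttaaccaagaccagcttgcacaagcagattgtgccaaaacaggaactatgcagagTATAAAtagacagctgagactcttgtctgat
Epcam (chr17:87635729-87635978, plus strand): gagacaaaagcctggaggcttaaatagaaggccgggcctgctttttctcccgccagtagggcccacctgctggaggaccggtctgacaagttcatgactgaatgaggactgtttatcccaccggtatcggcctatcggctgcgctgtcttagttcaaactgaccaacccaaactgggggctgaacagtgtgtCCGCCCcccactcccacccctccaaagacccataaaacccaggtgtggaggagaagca

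The wider set of secreted epididymal genes gave another order of libraries than the 8 mRNAs. Of 63 such genes, 34 had a row and 32 were tested; 0 were called, 0 had an unadjusted p under 0.05, and 22 lay above 0 and 10 below, with a median log2 fold change of 0.05. Their summed level was 4159, 2783, 3803 and 4693 CPM in TESA 1, 3, 5 and 7 and 3103, 2468.5, 4586 and 3876 CPM in CTRL 2, 4, 6 and 8. CTRL 4 and TESA 3 were lowest and TESA 7 and CTRL 6 highest, and the groups overlapped (by library totals CTRL 2, at 2394 CPM, lay below TESA 3, at 2627), whereas the sum of the 8 members was lowest in CTRL 2 and highest in CTRL 8. Spink8, a Kazal-type protease inhibitor, was the most counted at 692 ± 142 CPM (SD, n = 4) in TESA and 682 ± 177 (SD, n = 4) in CTRL, followed by Wfdc15b, of the whey acidic protein family, with 595 ± 195 (SD, n = 4) and 579 ± 209 (SD, n = 4).

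Of 30 genes of simple epithelium and its junctions, 28 were tested and 0 called, with a median log2 fold change of 0.05, and their sum ran from 959 CPM in CTRL 8 to 1143 in CTRL 4 by TMM, a 1.19-fold range, but from 787 in CTRL 2 to 1665.5 in TESA 7 by library totals. Jup, the junction protein plakoglobin, and Prom1, prominin 1, were the most counted, and late spermatids may also express genes of this list. Jup had 233 ± 66.4 CPM (SD, n = 4) in TESA and 284 ± 92.4 (SD, n = 4) in CTRL, and Prom1 151 ± 7.97 and 164 ± 32.2 (SD, n = 4 each).

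Markers of the other epididymal cells were low or rested on 1 gene. For clear cells, which acidify the lumen, 6 of 9 genes had a row and their sum ran from 11.2 CPM in TESA 3 to 26.7 in TESA 5, led by the proton pump subunit Atp6v1g3 (6.74 ± 3.36 CPM in TESA and 6.43 ± 1.85 in CTRL; SD, n = 4 each) and the transcription factor Foxi1 (6.87 ± 1.92 and 4.92 ± 0.626 CPM; SD, n = 4 each). Atp6v0d2, chosen after its value was seen, missed the level needed for a test. It had 16, 0, 20 and 11 counts in TESA 1, 3, 5 and 7 and 24, 15, 23 and 95 in CTRL 2, 4, 6 and 8. By TMM its CPM did not overlap between the groups, with TESA lower, but by library totals TESA 5 lay above CTRL 4. For basal cells, 6 of 7 genes had a row, and Dst, a cytolinker that many other cells express, made up 83.3% of the sum, followed by Itgb4, integrin β4, with 2.32 ± 2.79 CPM (SD, n = 4) in TESA and 3.49 ± 3.42 (SD, n = 4) in CTRL. Of the 6 tested, 2 lay above 0 and 4 below, with a median of -0.27 and 0 called. The median turned to 0.14 without CTRL 4, 0.04 without CTRL 2 and 0.01 without TESA 1. Krt14, a keratin of basal cells, chosen after its value was seen, had 27, 47, 63 and 133 counts in TESA 1, 3, 5 and 7 and 0, 0, 24 and 24 in CTRL 2, 4, 6 and 8, and its CPM did not overlap between the groups (log2 fold change 2.27, SE 1.22, unadjusted p = 0.0913 in edgeR). The basal sum was 98.1 CPM in TESA 3 and 78.9 in CTRL 4, the 2 libraries in which Cdh1 was highest, and 31.4 to 47.1 in the other 6, while by library totals TESA 7, at 74.1, lay above CTRL 4, at 63.6.

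Of 10 genes of epididymal transport, 9 were tested, 2 above 0 and 7 below, with a median log2 fold change of -0.17 and 0 called; the median turned to 0.03 without CTRL 4 and to 0.02 without TESA 5. Abcg2, an efflux pump, had 138 ± 57.7 CPM (SD, n = 4) in TESA and 140 ± 30.7 (SD, n = 4) in CTRL, and Aqp9, the aquaporin of principal cells, 39.5 ± 6.36 (SD, n = 4) and 42.2 ± 13.8 (SD, n = 4). Of 10 genes listed as regulators of androgen response and segment identity, 8 were tested and 0 called, with a median of 0.11. The most counted was Crat, at 75.0 ± 17.4 CPM (SD, n = 4) in TESA and 70.6 ± 22.6 (SD, n = 4) in CTRL. It encodes carnitine acetyltransferase, a metabolic enzyme and not itself such a regulator, and made up 37.6% of the sum of this list. Next was the transcription factor Pax8, also in the epithelial list, at 60.0 ± 19.0 (SD, n = 4) and 46.7 ± 24.3 (SD, n = 4).

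**Figure D3:**
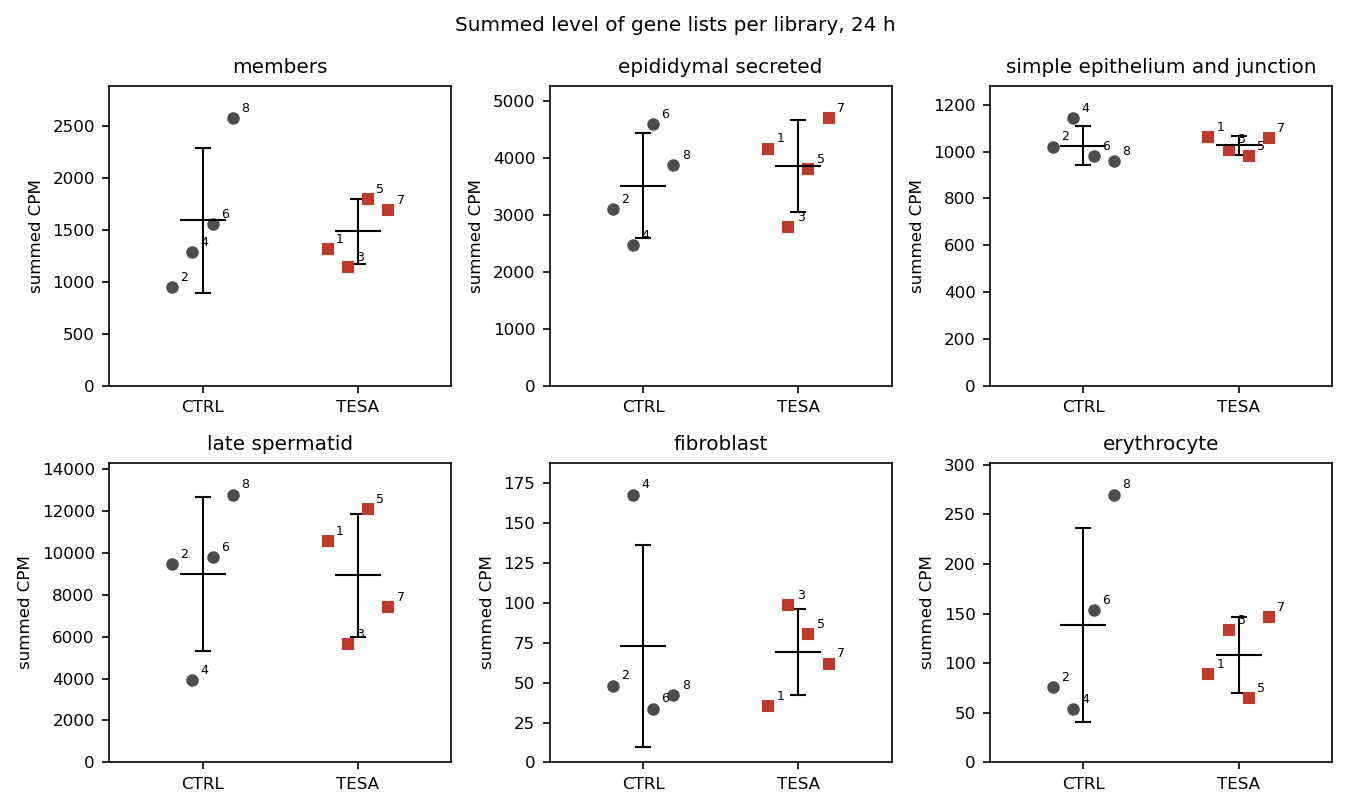
Summed level in CPM (TMM-scaled, linear axis from 0) of the 8 members and of 5 gene lists in the 4 CTRL libraries (circles) and the 4 TESA libraries (squares), with library numbers, the group mean (horizontal mark) and 1 SD (bars). With this scaling TESA 3 and CTRL 4 were lowest for secreted and late spermatid genes and highest for fibroblast genes, and CTRL 8 was highest for the members, late spermatid and erythrocyte genes.

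Markers of cells outside the epithelium were high in some of the libraries in which single members were high, and their part in these levels was not tested. Fibroblast genes, 6 of 10 with a row, summed to 98.4 CPM in TESA 3 and 168 in CTRL 4, where Cdh1 was highest, against 33.7 to 80.4 in the other 6 libraries (by library totals TESA 7, at 97.5, lay above TESA 3, at 92.9), with Col1a1 (22.1 ± 11.1 CPM in TESA and 21.7 ± 22.5 in CTRL; SD, n = 4 each) and Col1a2, both chains of collagen I, the most counted. Erythrocyte genes, 4 of 6 with a row, summed to 269.9 CPM in CTRL 8, where Crisp1 and Adam7 were highest, and to 53.5 to 153 in the other libraries, with the globins Hba-a2 (42.8 ± 16.2 CPM in TESA and 54.9 ± 32.4 in CTRL; SD, n = 4 each) and Hbb-bs the most counted. Smooth muscle genes summed to 118 CPM in TESA 5, where Clu and both keratins were highest, and to 51.7 to 104 in the other libraries, with Mylk, the myosin light chain kinase, and Tagln, transgelin, in front. The sum was also high in CTRL 4 (104 CPM), where both keratins were lowest, and in TESA 3 (98.1 CPM). Mylk made up 48.7% of the sum and had 24.9 CPM in TESA 5, against 67.9 in CTRL 4 and 63.9 in TESA 3. The median log2 fold change of the smooth muscle genes was the largest of any list, 0.42 with 7 of 8 above 0 and 0 called, and it was 0.06 without TESA 5. The erythrocyte median was -0.35 with 0 of 4 above 0 and 0 called, and it was 0.15 without CTRL 8.

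The leukocyte list, 21 of 22 with a row, summed to 1305 CPM in CTRL 4 and 2684 in TESA 7, but 84.8% of its sum was Cd52, a surface glycopeptide that the epididymal epithelium also makes. Without Cd52 the sum was 225 CPM in TESA 5 and CTRL 6 and 478 in CTRL 2, with Cd74, the invariant chain of MHC class II, in front. Of the 21 tested, 0 were called, 5 lay above 0 and 16 below, with a median of -0.22 that turned to 0.19 without CTRL 2 and to 0.13 under limma voom. Ctss, cathepsin S, chosen after its value was seen, was the leukocyte gene with an unadjusted p under 0.05. It had 4.91 ± 0.864 CPM (SD, n = 4) in TESA and 8.12 ± 0.827 (SD, n = 4) in CTRL, without overlap of the groups by TMM. Its log2 fold change was -0.72 (SE 0.30, 95% interval -1.46 to 0.02, unadjusted p = 0.0379 in edgeR). Vwf, von Willebrand factor, 1 of 2 endothelial genes with a row out of 9, was the other list gene below that p, with a log2 fold change of -0.68 (SE 0.30, 95% interval -1.41 to 0.05, unadjusted p = 0.0472 in edgeR). Both intervals include 0 although p is under 0.05, so the 95% intervals given here are not those of the test behind the p-values. CTRL 2 had 53.0 CPM of Vwf against 18.1 to 30.3 in the other libraries, and the log2 fold change was -0.31 without it and -0.41 by library totals. The other endothelial gene, Pecam1, had 1.37 ± 0.644 CPM (SD, n = 4) in TESA and 0.981 ± 1.37 (SD, n = 4) in CTRL. Ctss and Vwf were the 2 of 150 list genes tested under that p, beside 2.4% of all tested genes. By TMM, among the tested list genes the groups did not overlap in Ctss and Krt14, with TESA lower in the first and higher in the other, beside 3.06% of all tested genes. By library totals the groups overlapped in Ctss, with TESA 7 above CTRL 2 and CTRL 4, and its log2 fold change was -0.49.

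Of 13 Sertoli and Leydig cell genes 3 had a row, with sums of 6.32 to 12.2 CPM, led by Dhh and Sox9. All 20 late spermatid genes had a row, with sums from 3919 CPM in CTRL 4 and 5659 in TESA 3 to 12772 in CTRL 8, and Odf1, of the outer dense fibres of the tail, and Smcp, of the mitochondrial sheath, were the most counted. Odf1 had 2276 ± 837 CPM (SD, n = 4) in TESA and 2342 ± 1010 (SD, n = 4) in CTRL. No list held a gene at 0 in every library.

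By the shape of the mean profile of the 8 mRNAs over the 8 libraries, each standardized on the log2 scale, the 5 most similar genes outside them were Gdf9 (r = 0.982), Cox11 (0.976), Ggct (0.976), Rasl10a (0.964) and Map1lc3b (0.963), given as a likeness with no test. Gdf9 is a growth factor of the TGFβ family, Cox11 helps to assemble cytochrome c oxidase, Ggct is an enzyme of glutathione breakdown, Rasl10a a Ras-like GTPase and Map1lc3b a protein of the autophagosome membrane. Gdf9 rested on 0 to 79 counts and Cox11 on 0 to 51. The mean profile was itself a poor guide to its members: against the mean of the other 7, r ran from -0.73 for Cdh1 to 0.47 for Adam7.

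The 8 mRNAs were described at 24 h alone, since none of them had a row in the table of sperm RNA at 46 days that was used here, which has 3082 features from 14 libraries of total RNA. Of the 63 secreted epididymal genes 0 had a row in that table, and of the 20 late spermatid genes 17 did.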

How the data were processed

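The authors trimmed reads with Trim Galore 1.16 and ran Salmon 0.11.2 on mouse transcripts, piRNA precursors and repeats; the deposited values are its estimated counts, not normalized. Here they were rounded to whole numbers and scaled by TMM over all 16242 features. Counts that were not whole (tolerance 0.0005), a mark of reads shared with other features, occurred in 7 of 8 libraries for Epcam and Cdh1, 6 for Clu, 5 for Adam7, 2 for Crisp1, 1 for Krt8 and 0 for Krt18 and Gpx5. Class was taken from names, of which 12444 of 15363 matched RefSeq tables. Names without a match were counted as mRNAs or lincRNAs unless they had the pattern of a repeat or another RNA.

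The 13027 features tested were compared by quasi-likelihood in edgeR 4.0.16 (R 4.3.3) and adjusted together by Benjamini-Hochberg. Correlations used log2 CPM (prior count 2). Alternatives were edgeR's exact test, DESeq2 1.42.0, limma 3.58.1 voom, other scalings, filters and prior counts, and left-out libraries. The code was tested on simulated data. Between libraries of a group, chi-square per gene was at least 49.8. Levels are not compared between genes, since transcript lengths were not used.

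Members and gene lists were chosen with earlier results of these data known. Other genes named are the 2 with the highest mean CPM in each list, a neighbour of Gpx5, list genes under an unadjusted p of 0.05 or without overlap of the groups and the 5 most like the mean profile. The labels do not say whether a library is 1 male, so p-values measure only spread between these samples.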

Additional observations from a re-analysis of the deposited data

Results flagged for a closer look

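In 44 groups of 4 libraries, those of the 8 mRNAs, their sum and 13 list sums, 2 had a library far from the other 3. The rule was set for a chance rate of about 0.05. That rate was not measured in these data, and the 44 groups share libraries and genes. Epcam in TESA had 41.0 CPM in TESA 7, while the other TESA libraries had 27.5 to 29.8. The summed fibroblast level in CTRL was 168 CPM (167.9) in CTRL 4, while the other CTRL libraries had 33.7 to 48.2. What set these libraries apart was not tested.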

How the results depend on the processing

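No gene passed the adjusted threshold of edgeR's quasi-likelihood test, the main test, or of any of its 19 alternatives, among them edgeR's exact test, DESeq2 and limma voom, with 322, 419 and 919 genes at an unadjusted p under 0.05 in these 3, 313 in the main test, 142 by library totals and 211 to 464 without a single library. The log2 fold changes of Clu, Krt8 and Krt18 lay above 0 and those of Crisp1 and Adam7 below 0 in all 19. By library totals the median of all genes moved to 0.21, and Epcam (0.08) and Cdh1 (0.04) changed sign, though both lay below that median. Cdh1 also changed sign without CTRL 4 (0.22), TESA 5 (0.07) or TESA 7 (0.03), and Gpx5 under limma voom (-0.69); the cause was not tested. With single libraries left out, the log2 fold change ran from -0.63 (without TESA 3) to 0.22 for Cdh1, from 0.10 to 0.71 for Clu, from -0.99 to -0.09 for Crisp1 and from 0.09 to 0.84 for Gpx5. Except for smooth muscle genes and the regulators, the median of the members and of each list changed sign in at least 1 alternative besides library totals.

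The count of 1 pair past the adjusted threshold became 2 by library totals, 0 with DESeq2 size factors and 0 with Spearman's rho. Without single libraries it ran from 0 to 3: it was 3 without TESA 3 and 0 without CTRL 2, CTRL 4, TESA 5, CTRL 6, TESA 7 or CTRL 8. With TESA 3 and CTRL 4 both left out, an alternative chosen after seeing the data, it was 0; fewer libraries also allow fewer pairings. With group means removed it stayed 1 by a permutation across both groups, which is then not exact. The pair was Krt18 and Cdh1 (r = -0.93, adjusted p = 0.0181 by this permutation), not Krt8 and Krt18 (0.11). The summed level became 3201 CPM (3200.8) in TESA and 3428 in CTRL with the 5 most abundant features left out, which makes the total smaller.

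No paired analysis was possible because the TESA and CTRL libraries at 24 h share no replicate number. This concerns pairs with the same number only. The numbers alternate between TESA and CTRL, and blocks of neighbouring numbers, or of low and high numbers, were not tested. By TMM, Krt18 and Krt8 were higher in each TESA library than in the CTRL library with the next number, seen after the fact. All other members went both ways. The alternatives planned for 46 days were not run, as no member had a row there. Gpx5 rested on the fewest counts, 12 in its lowest library.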
